A study of Mus musculus with 12 samples.

Results

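The report concerns 10 imprinted genes measured in mouse embryonic fibroblasts, namely the paternally expressed genes Peg3, Dlk1, Igf2, Ndn, Mest and Plagl1 and the maternally expressed genes Meg3, H19, Cdkn1c and Grb10. Every probe set annotated to a listed symbol or an older synonym of it was taken. This gave 18 of the 12422 probe sets on the array that are not controls, 11 of them for the 6 paternally expressed genes and 7 for the 4 maternally expressed genes. The genes were selected on differences in these same signals between the 4 lines, so their own values are given as a description without a test. Of the 18 probe sets, 13 passed the filter on low signals and 5 lay below it.

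The fibroblasts carried the genotype KSR1-/- on a DBA background strain, and all 4 lines carried green fluorescent protein (GFP). KSR1 is a scaffold protein that brings Raf, MEK and ERK kinases together, and H-RasV12 is an oncogenic form of H-Ras that is locked in its active state. One line had GFP alone, one had H-RasV12, one had KSR1, and one, called the double line here, had KSR1 and H-RasV12. Each condition was 1 cell line measured on 3 arrays, and nothing in the labels says that the 3 arrays came from separate cultures, so p-values measure only the spread between arrays, which may be technical. How the transgenes were delivered is not given in the sources used here.

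An imprinted gene is transcribed mainly from the copy inherited from one parent, because DNA methylation laid down in the egg or sperm marks a control region near it. Many such genes are strongly expressed in the embryo and turned down after birth, and several act on growth, as with the growth factor gene Igf2 on the paternal side and the growth inhibitors Grb10 and Cdkn1c on the maternal side. The array reads total transcript and does not tell the parental copies apart, so no value here bears on whether imprinting itself was kept or lost.

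Of the 10 genes, 5 (Peg3, Igf2, Ndn, H19 and Cdkn1c) lie on chromosome 7, Dlk1 and Meg3 lie on chromosome 12, and Mest, Plagl1 and Grb10 lie on chromosomes 6, 10 and 11. RefSeq promoter windows (GRCm38.p6, 250 bases before to 50 after a gene's start) were matched for 8 members, with 15 windows in all. Of these 8 genes, a window is shown for the 5 whose mean log2 signals differed most between the lines, because CG dinucleotides, given in capitals, are where mammalian DNA is methylated. Meg3 has a second window and Mest 2 others, and the windows shown for them were chosen after the sequences were seen. The windows lie at chr12:109452573-109452872 on the plus strand for Dlk1, chr12:109540746-109541045 (plus) for Meg3, chr7:62348027-62348326 (plus) for Ndn, chr6:30737800-30738099 (plus) for Mest and chr7:6730370-6730669 (minus) for Peg3.
Dlk1: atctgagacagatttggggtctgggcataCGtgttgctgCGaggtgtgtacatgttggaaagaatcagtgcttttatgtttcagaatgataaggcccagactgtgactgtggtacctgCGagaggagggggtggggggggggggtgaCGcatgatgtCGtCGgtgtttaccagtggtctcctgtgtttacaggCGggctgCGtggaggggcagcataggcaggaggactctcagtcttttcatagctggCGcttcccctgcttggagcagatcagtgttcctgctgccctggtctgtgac
Meg3: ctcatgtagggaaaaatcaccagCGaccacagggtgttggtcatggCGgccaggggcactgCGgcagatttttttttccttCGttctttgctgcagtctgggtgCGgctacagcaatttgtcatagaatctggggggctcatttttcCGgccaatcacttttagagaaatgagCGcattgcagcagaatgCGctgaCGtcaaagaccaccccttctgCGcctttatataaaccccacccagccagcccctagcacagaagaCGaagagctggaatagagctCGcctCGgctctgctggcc
Ndn: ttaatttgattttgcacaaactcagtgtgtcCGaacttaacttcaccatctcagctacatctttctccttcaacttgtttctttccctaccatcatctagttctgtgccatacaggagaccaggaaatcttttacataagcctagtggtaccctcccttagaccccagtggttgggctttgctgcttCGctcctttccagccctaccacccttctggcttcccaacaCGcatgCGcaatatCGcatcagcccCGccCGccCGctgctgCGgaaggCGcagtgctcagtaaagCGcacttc
Mest: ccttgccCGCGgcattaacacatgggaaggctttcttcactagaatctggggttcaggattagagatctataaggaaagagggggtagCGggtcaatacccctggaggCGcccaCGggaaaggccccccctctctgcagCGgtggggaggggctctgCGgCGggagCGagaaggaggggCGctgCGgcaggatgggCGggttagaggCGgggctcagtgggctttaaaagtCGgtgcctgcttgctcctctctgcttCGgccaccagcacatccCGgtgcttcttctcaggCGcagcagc
Peg3: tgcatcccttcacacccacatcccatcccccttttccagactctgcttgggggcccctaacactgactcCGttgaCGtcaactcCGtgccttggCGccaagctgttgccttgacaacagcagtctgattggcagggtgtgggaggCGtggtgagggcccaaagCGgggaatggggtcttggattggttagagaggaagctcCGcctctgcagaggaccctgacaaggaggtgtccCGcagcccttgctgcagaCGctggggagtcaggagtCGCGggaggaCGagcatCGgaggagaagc
They hold 9, 13, 11, 17 and 13 CG dinucleotides in the order shown, against a median of 7 over 32851 windows of the same length, of which 45.8%, 37.9%, 41.4%, 31.4% and 37.9% hold at least as many. Windows not shown ran from few to many, with 1 CG in the other Meg3 window (94.6% of all windows hold at least as many), 8 and 17 in the other Mest windows, 2, 7, 14 and 24 in those of Igf2, 26 in that of Plagl1, and 9 and 45 in those of Grb10. A search on both strands of the 15 windows found no AP-1 motif (TGANTCA, in 7.81% of all windows), ETS motif (CCGGAAGT, in 3.89%) or YY1 motif (GCCATNTT, in 6.05%). The cyclic AMP response element (TGACGTCA, in 1.79% of all windows), a motif chosen after the sequences were seen, occurs once in the Peg3 window and once in the Meg3 window. No methylation was measured in this study.

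Values are MAS5 signals, the intensity that Affymetrix software assigns to a probe set, and each is written for replicates 1, 2 and 3 in order. The number of arrays limits the precision. A fold change is a difference of mean log2(signal + 23) with its standard error from a limma fit over all arrays. The control for 18S ribosomal RNA read 344.6, 394.7 and 146.4 on replicate 1 of the GFP, KSR1 and double lines and 515.7 on GFP replicate 3, against 1114 to 3312 elsewhere. Replicate 1 of the GFP line and of the double line also had the lowest 3′ beta-actin control, at 7981 and 8629 against 16680 to 26873 elsewhere. Values from replicates 2 and 3 alone are therefore given beside the main differences. Of the 2 Ksr1 probe sets, 92765_s_at read 67.4 ± 66.5 (SD, n = 3) with GFP and 915 ± 699 with KSR1 (+3.22 ± 0.62, limma adjusted p = 0.00309). It read 22.2 ± 9.14 with H-RasV12 and 235 ± 83.6 in the double line. The other, 92764_at, did not pass for KSR1 against GFP (+0.10 ± 0.23, limma adjusted p = 0.854). It read 261 ± 55.0 with GFP, 199.7 ± 27.4 with H-RasV12, 283 ± 76.4 with KSR1 and 294 ± 29.2 in the double line. For the double line against H-RasV12, both Ksr1 probe sets had an unadjusted limma p under 0.05. Of 10 fibroblast markers, 8 passed the filter, while Vim and Thy1, which mark fibroblasts, lay below it in every line. The summed signal of the 10 ran from 45200 to 61085 with GFP and from 45599 to 63397 with H-RasV12, and lay at 30086 to 34358 with KSR1 and 18498 to 29072 in the double line. No leukocyte marker of the 5 on the array and no germ cell or pluripotency marker of 3 passed the filter, while 1 of 4 endothelial, 1 of 4 epithelial and 2 of 4 skeletal muscle markers did.

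**Figure D1:**
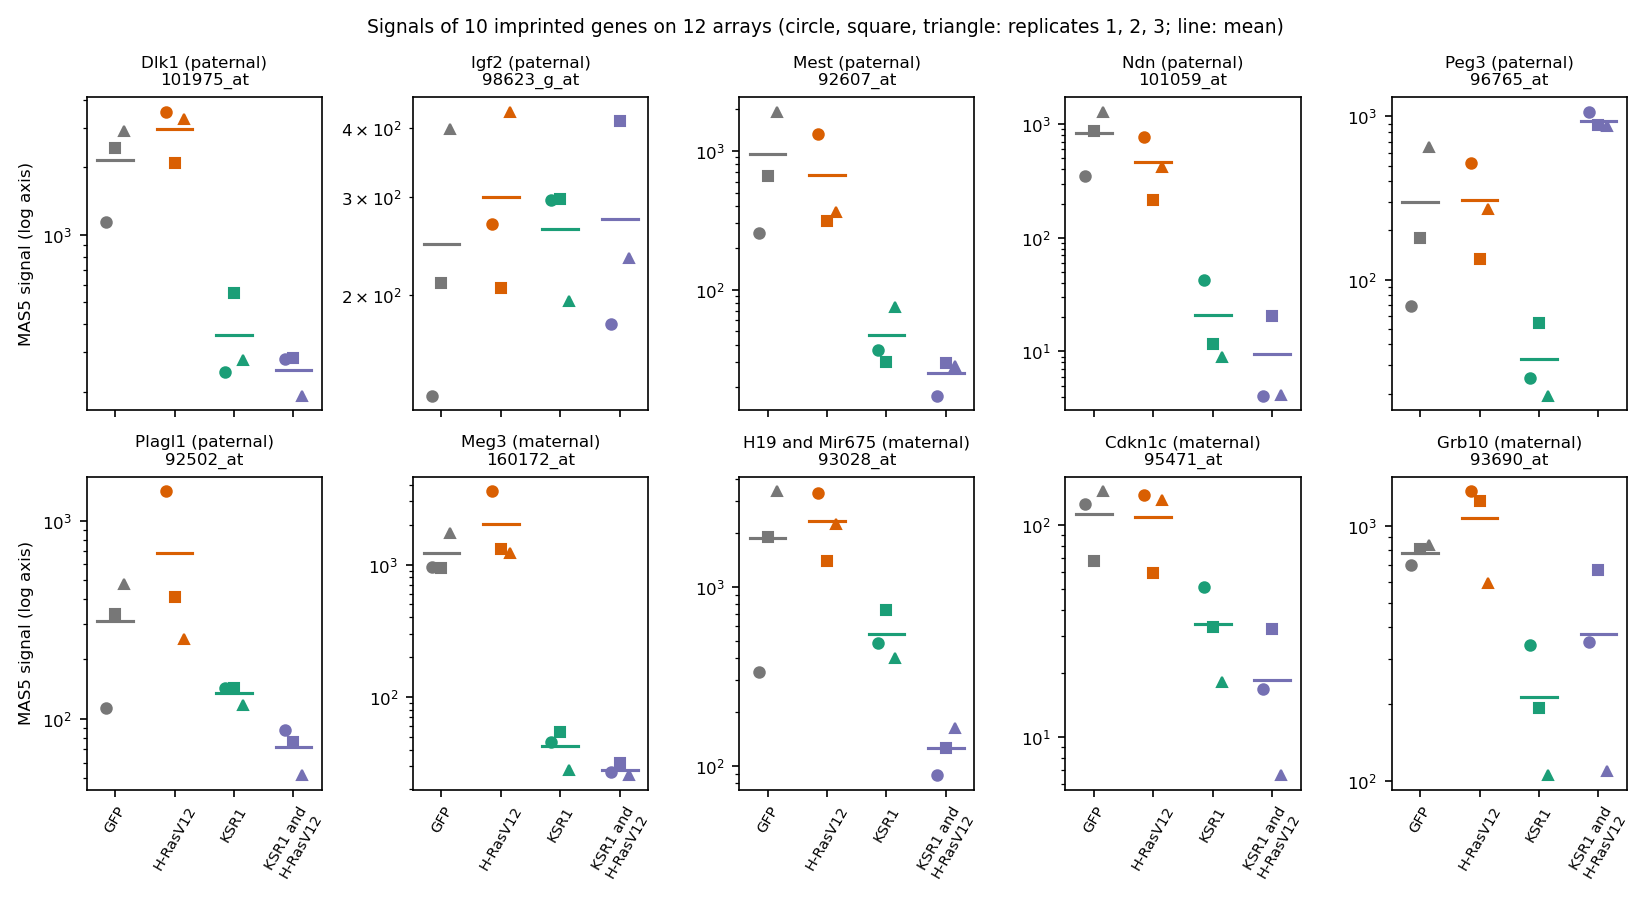
MAS5 signal on a log axis for each gene's probe set of the highest mean, with 1 point for each of the 3 arrays of each line and a bar at the group mean. Dlk1, Meg3, Ndn and Mest are lower on all 6 arrays with KSR1 than on the 6 without it. Peg3 is highest in the double line, and the Igf2 arrays of the 4 lines overlap.

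Signals of 5 of the 10 genes were lower on every array with KSR1 than on every array without it. On 7 of the 18 probe sets, every one of the 6 arrays with KSR1 (alone or with H-RasV12) lay below every one of the 6 without it, and on 0 the reverse held. The 7 belong to Dlk1, Ndn (both probe sets), Mest, Meg3 (both probe sets) and Cdkn1c. Dlk1 stayed above the median of the whole table, 181.4, on all 12 arrays, while Cdkn1c lay below it on all 12. Over all 12422 probe sets the same separation held downward for 2.74% and upward for 1.43%. Since the genes were picked with such values in view, nothing is read from that comparison. In RNA from whole cultures, fewer cells that express a gene and less of its RNA per cell cannot be told apart. The fibroblast marker sum was also lower in the lines with KSR1. By limma at an adjusted p under 0.05, 2 of the 8 tested markers fell with KSR1 against GFP (Col1a2 and Col3a1). In the double line, 2 fell against KSR1 and 5 against H-RasV12. Over all tested probe sets 6.81%, 6.92% and 7.71% were called lower in these comparisons. The part of the marker sum in the differences of the 5 genes was not tested.

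Dlk1 encodes a transmembrane protein of the Notch ligand type that holds back the differentiation of preadipocytes and other precursors. Its signals were 1144, 2432 and 2903 in the GFP line, 3542, 2083 and 3283 with H-RasV12, 244, 552 and 277 with KSR1, and 279.8, 282 and 192 in the double line. The 6 arrays with KSR1 all read 552 or less, and the 6 without it all read 1144 or more. The mean with KSR1 was 16.6% of the GFP mean (−2.50 ± 0.35 on the log2 scale, and −2.69 from replicates 2 and 3). The double line lay at 11.6% of the GFP mean and differed from the H-RasV12 line by −3.43 ± 0.35 (−3.37 from replicates 2 and 3). Adding H-RasV12 left the arrays overlapping, both without KSR1 (+0.52 ± 0.35) and with it (−0.40 ± 0.35).

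Ndn encodes necdin, a MAGE family protein that restrains cell proliferation and is one of the genes lost in Prader-Willi syndrome. One probe set (101059_at) read 353, 864 and 1289 with GFP and 775, 216 and 415 with H-RasV12. It read 42.6, 11.6 and 8.89 with KSR1 and 4.08, 20.5 and 4.14 in the double line. Every array with KSR1 read 42.6 or less and every array without it 216 or more. The difference of KSR1 from GFP was −4.19 ± 0.51 (−5.02 from replicates 2 and 3), and that of the double line from H-RasV12 was −3.78 ± 0.51 (−3.23). Since signals with KSR1 lie near the pseudocount of 23, the sizes depend on it, at −5.38 and −5.64 with a pseudocount of 1 and −2.82 and −2.26 with 100. A second probe set (94811_s_at) shares probes among transcripts, and it followed the first with r = 0.960 over 12 arrays. It gave −3.24 ± 0.51 and −2.81 ± 0.51 for those comparisons.

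Mest (Peg1) encodes an endoplasmic reticulum protein of the alpha/beta hydrolase fold that is abundant in embryonic mesoderm. Its signals were 256, 663 and 1919 with GFP, 1329.6, 310.3 and 365 with H-RasV12, 36.7, 29.9 and 74.9 with KSR1, and 17.2, 29.4 and 28.3 in the double line. The spread within the first 2 groups was wide, yet the lowest array without KSR1 lay above the highest with it. The KSR1 mean was 4.99% and the double-line mean 2.64% of the GFP mean. The differences were −3.41 ± 0.61 for KSR1 against GFP and −3.55 ± 0.61 for the double line against H-RasV12, and from replicates 2 and 3 they were −4.00 and −2.79. With pseudocounts of 1 and 100 the first was −3.95 and −2.49 and the second −4.40 and −2.38. The double-line arrays also lay below the KSR1 arrays, at a difference of −0.51 ± 0.61.

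Peg3, which encodes a large zinc finger protein abundant in embryo and brain, had a different order. Its brightest probe set (96765_at) read 68.6, 179 and 653 with GFP, 517, 135 and 269 with H-RasV12, 25.0, 54.0 and 19.4 with KSR1, and 1071, 887 and 871 in the double line. The KSR1 arrays were the lowest of all 12 and the double-line arrays the highest. The double line lay at 314% of the GFP mean. The KSR1 line lay at 10.9% of it (−2.11 ± 0.57 against GFP, −1.34 without GFP replicate 3). H-RasV12 thus went with a signal higher by 4.16 ± 0.57 on the log2 scale where KSR1 was present (+3.98 from replicates 2 and 3). Where KSR1 was absent the arrays overlapped, at +0.33 ± 0.57, with −0.79 from replicates 2 and 3 and −0.34 without GFP replicate 1. The difference of those responses was +3.83 ± 0.81, and +4.77 from replicates 2 and 3. Leaving out single arrays moved it between +3.06 and +4.50, and pseudocounts of 1 and 100 gave +4.53 and +2.78.

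The other Peg3 probe sets had the same order of the means of the 4 lines. On both, the KSR1 and GFP arrays overlapped, at −1.37 ± 0.47 on 161316_f_at and −0.49 ± 0.33 on 101451_at. The probe set 161316_f_at, whose probes may be shared within a gene family, read 110.1, 169.8 and 402 with GFP, 354, 95.4 and 255 with H-RasV12, 35.1, 113 and 56.8 with KSR1, and 367, 472 and 518 in the double line. Its double-line arrays lay above the KSR1 and H-RasV12 arrays, but only 2 of the 3 lay above the highest GFP array. A probe set of Peg3 with dim signals (101451_at) was below the filter, with 107, 165 and 174 in the double line against 23.7 to 87.1 on the other 9 arrays. The 3 probe sets correlated pairwise with r of 0.906, 0.933 and 0.964 over the 12 arrays, a description of 4 groups rather than of independent samples.

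Plagl1 (Zac1) encodes a zinc finger transcription factor with growth-arresting activity. The probe set 92502_at read 113, 336 and 480.4 with GFP, 1405, 409.5 and 253 with H-RasV12, 143, 143 and 117 with KSR1, and 87.6, 76.4 and 51.7 in the double line. The double line was the lowest group without overlap, while GFP and KSR1 overlapped. It differed from H-RasV12 by −2.57 ± 0.53 (−2.0 from replicates 2 and 3) and from KSR1 by −0.74 ± 0.53. H-RasV12 against GFP was +0.93 ± 0.53 with the groups overlapping, and +0.25 without H-RasV12 replicate 1, the array at 1405. A probe set below the filter (92501_s_at) also placed the double line lowest, at 46.5, 65.3 and 10.7 against 89.5 to 329.8 on the others. It correlated with 92502_at at r = 0.755 over 12 arrays.

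Igf2, which encodes insulin-like growth factor 2, showed no separation of the lines. Its brighter probe set (98623_g_at) read 131, 209.8 and 399 with GFP, 269, 206 and 429 with H-RasV12, 297, 298 and 194 with KSR1, and 177, 412 and 233 in the double line. All 4 groups overlapped, and the 4 differences between lines lay between −0.15 and +0.33 on the log2 scale with a standard error of 0.38. The other probe set (98622_at) stayed between 5.35 and 35.3, below the filter, and correlated with the first at r = 0.411 over 12 arrays.

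Meg3 (Gtl2), the long noncoding RNA expressed from the maternal copy of the Dlk1 domain, had the lowest level relative to GFP among the maternally expressed genes. The probe set 160172_at read 960.1, 941 and 1744 with GFP, 3581, 1309 and 1229 with H-RasV12, 45.8, 54.7 and 27.9 with KSR1, and 27.3, 31.9 and 25.6 in the double line. The KSR1 mean was 3.52% and the double-line mean 2.32% of the GFP mean. The differences were −4.20 ± 0.36 (KSR1 against GFP) and −5.15 ± 0.36 (double line against H-RasV12), or −4.38 and −4.64 from replicates 2 and 3. With a pseudocount of 100 they were −3.15 and −3.89, and with 1 they were −4.79 and −5.94. The probe set 160173_at read 1084, 1076 and 1086 with GFP, 1552, 1022 and 831 with H-RasV12, 233, 156 and 123 with KSR1, and 30.6, 35.7 and 66.3 in the double line. On this probe set the double line also lay apart from KSR1, by −1.52 ± 0.27 (−1.96 with a pseudocount of 1 and −0.90 with 100), whereas the groups overlapped on 160172_at (−0.34 ± 0.36). The cause of this disagreement between the probe sets was not tested.

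H19 encodes an abundant fetal noncoding RNA, and its only probe set here (93028_at) is annotated to H19 and to Mir675, a microRNA gene inside the H19 gene span, so the value cannot be assigned to one of them. It read 333, 1890.0 and 3415 with GFP, 3347, 1392 and 2229.5 with H-RasV12, 488, 742 and 400.0 with KSR1, and 88.4, 126 and 163 in the double line. The double-line arrays were lower than all other arrays. GFP and KSR1 overlapped through GFP replicate 1 alone, the array with the low actin control. The KSR1 difference from GFP was −1.27 ± 0.60 with that array and −2.22 without it. The double line lay at 6.71% of the GFP mean, with −3.92 ± 0.60 against H-RasV12 and −1.91 ± 0.60 against KSR1 (−3.42 and −1.77 from replicates 2 and 3). The H-RasV12 response in cells with KSR1, less that in cells without it (the interaction), was −2.65 ± 0.85, and −1.25 from replicates 2 and 3.

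Grb10 encodes an adaptor protein that binds the insulin and IGF1 receptors and damps their signal. Its probe set 93690_at read 703, 814 and 839 with GFP, 1365, 1248 and 599 with H-RasV12, 343, 194 and 105 with KSR1, and 352, 670.2 and 109 in the double line. The KSR1 arrays lay below the GFP arrays, at 27.2% of their mean (−1.90 ± 0.50, and −2.35 from replicates 2 and 3). Only double-line replicate 2 reached the range of the H-RasV12 arrays, and the difference there was −1.67 ± 0.50 (−1.55 from replicates 2 and 3). It was −2.21 without double-line replicate 2 and −1.02 without double-line replicate 3. The probe set 93691_s_at gave −2.04 ± 0.57 and −1.43 ± 0.57 for these comparisons and correlated with the first at r = 0.966. The probe set 95450_at stayed between 4.06 and 54.6, below the filter, and had KSR1 above GFP on all arrays. It correlated with 93690_at and 93691_s_at at r of only 0.0869 and 0.108.

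Cdkn1c encodes p57, an inhibitor of cyclin-dependent kinases. Its probe set (95471_at) lay below the filter, at 126, 67.6 and 145 with GFP, 138, 59.3 and 131 with H-RasV12, 51.4, 33.2 and 18.3 with KSR1, and 16.9, 32.4 and 6.61 in the double line. All arrays with KSR1 were lower than all without it. The differences were −1.24 ± 0.37 for KSR1 against GFP and −1.66 ± 0.37 for the double line against H-RasV12, on a scale that understates changes of dim probe sets.

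**Figure D2:**
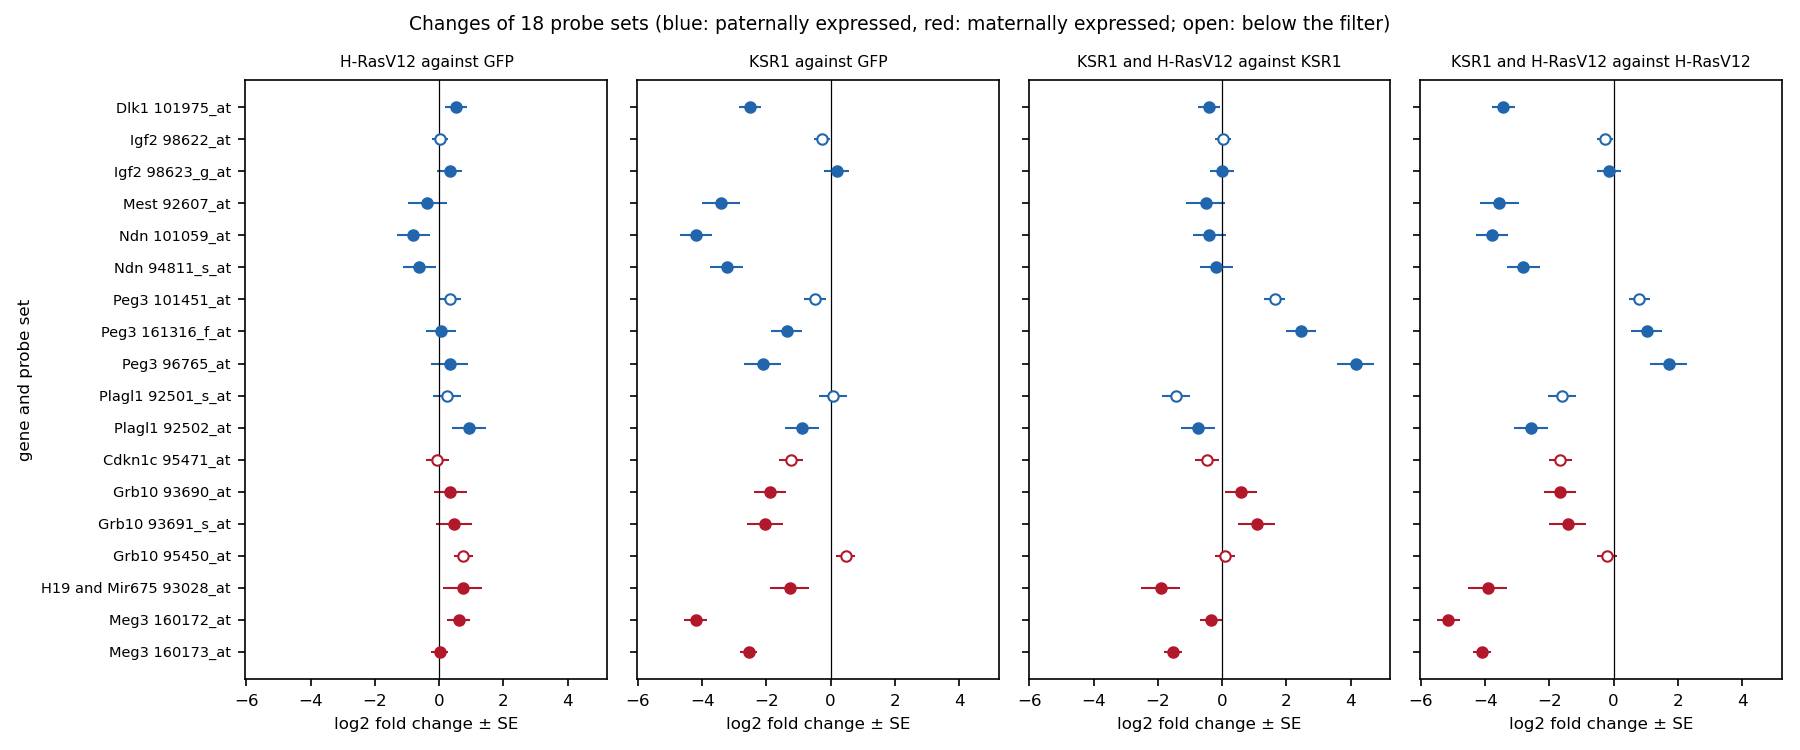
Log2 fold change ± SE of all 18 probe sets in 4 comparisons, with paternally expressed genes in blue, maternally expressed genes in red, filled marks for the 13 probe sets past the filter and open marks for the 5 below it. Both parental classes lie mostly left of 0 in the KSR1 comparisons, and the 3 Peg3 probe sets lie right of 0 in the double line.

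Paternally and maternally expressed genes were compared by counts, which describe the chosen genes and carry no test. For KSR1 against GFP, all 3 arrays were lower on 5 of 11 paternal and 5 of 7 maternal probe sets and higher on 0 and 1, the latter being the dim Grb10 probe set 95450_at. Over all probe sets 10.3% were lower and 11.9% higher in this way. For the double line against H-RasV12, 6 of 11 paternal and 4 of 7 maternal probe sets were lower and 3 and 0 were higher, with 11.7% lower and 10.2% higher over all. The 3 paternal probe sets that were higher are those of Peg3. With KSR1 present, H-RasV12 went with 3 higher (Peg3) and 3 lower paternal probe sets and with 0 higher and 2 lower maternal ones, against 9.23% higher and 12.3% lower over all. Without KSR1, H-RasV12 left all 11 paternal probe sets overlapping and separated 1 maternal probe set, 95450_at, upward, where 5.64% of all probe sets were higher and 5.39% lower.

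Over the 13 probe sets past the filter, the median log2 difference was +0.33 for H-RasV12 against GFP, −2.11 for KSR1 against GFP, −0.34 for the double line against KSR1 and −2.81 for the double line against H-RasV12. Over all 6897 tested probe sets the medians were +0.01, +0.04, −0.07 and −0.05. Split by parent, the KSR1 medians were −2.31 for 8 paternal and −2.04 for 5 maternal probe sets, and those of the double line against H-RasV12 were −2.69 and −3.92. The limma fit called 0 of the 13 for H-RasV12 against GFP (0 at an unadjusted p under 0.05), where it called 0.0725% of all, and 9 lower for KSR1 against GFP, where it called 11.8% of all (4.97% higher and 6.81% lower). It called 2 higher and 2 lower for the double line against KSR1 (15.1% of all, 8.16% higher and 6.92% lower) and 9 lower for the double line against H-RasV12 (14.8% of all, 7.1% higher and 7.71% lower). For the interaction it called 2 higher and 1 lower (7.7% of all, 4.16% higher and 3.54% lower). These contrasts served to choose the genes, so nothing is read from the medians or the counts. The comparisons also share arrays of the same 4 lines. Mest, both Ndn probe sets and Meg3 160172_at passed the filter only through arrays without KSR1. The 5 probe sets below the filter, left out of these medians, ran from −1.24 (Cdkn1c) to +0.46 (Grb10 95450_at) for KSR1 against GFP.

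**Figure D3:**
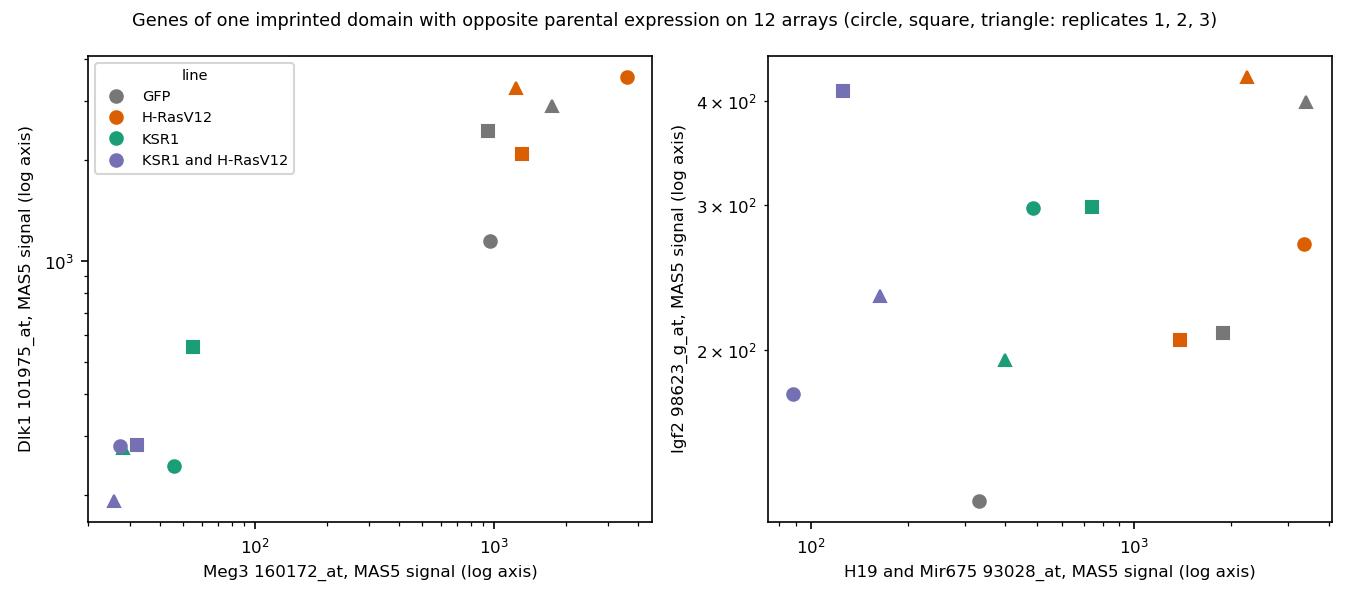
Signals on log axes of a paternally expressed gene against a maternally expressed gene of its domain, 1 point per array, for Dlk1 against Meg3 and for Igf2 against the probe set of H19 and Mir675, coloured by line and shaped by replicate number. Dlk1 and Meg3 are both lower on the 6 arrays with KSR1 than on those without it. The Igf2 signals of all 4 lines overlap, while that of H19 and Mir675 is lowest in the double line.

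Where members lie in a common imprinted domain, the parental classes can be set side by side. Dlk1 and Meg3 lie in a domain of chromosome 12 in which only predicted genes separate them, and both were lower on every array with KSR1 than on every array without it. Dlk1 log2 signals correlated with Meg3 (160172_at) at r = 0.970 over 12 arrays in 4 groups, and among named genes only the transcription factor gene Snai2 (0.979) and the aminopeptidase gene Enpep (0.978) were more like Dlk1. Igf2 and H19, which share an enhancer region on chromosome 7, did not have this likeness. Igf2 overlapped in all 4 lines, while the H19 and Mir675 probe set was lowest in the double line. The Igf2 reading rests on its only probe set past the filter, which read 131 to 429, around the filter level of 181.4.

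Other members had high correlations across domains. Mest and the second Ndn probe set, on chromosomes 6 and 7, correlated at 0.976, and each was the other's closest or second closest named gene. The first Ndn probe set was most like Il1rn (0.986), Sfrp2 (0.984) and Nid2 (0.982), and Meg3 most like Clec11a (0.988), Ebf3 (0.980) and Calml4 (0.979). Peg3 (96765_at) was most like Mcee (0.933), Grn (0.920) and Rhou (0.919), Grb10 (93690_at) like Plcd1 (0.960), Ptprm (0.913) and Serpinf1 (0.902), and the H19 and Mir675 probe set like Nfix (0.957), Tnfrsf11b (0.939) and Prkcd (0.937). These are Pearson correlations of log2 values over 12 arrays that share 4 lines, picked as the highest of all named probe sets past the filter.

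Imprinted genes outside the 10 were read from lists written with the earlier description of the series at hand, and here limma p-values adjusted over all 6897 probe sets apply. Of 22 paternally expressed genes listed, 11 were on the array and 4 were tested, and of 30 maternally expressed genes, 20 were on the array and 12 were tested. By limma, H-RasV12 without KSR1 changed 0 of the 4 and 0 of the 12, with 1 of each at an unadjusted p under 0.05. Of all tested probe sets 0.0725% were called there. KSR1 against GFP raised 1 paternal gene (Sfmbt2) and lowered 1 (Impact), and raised 1 maternal gene (Ampd3) and lowered 1 (Igf2r). Of all tested probe sets 11.8% were called there, 4.97% higher and 6.81% lower. The calls among these few genes thus went both ways.

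Sgce, which encodes epsilon-sarcoglycan and is paternally expressed, had signals of 479 ± 102 (SD, n = 3) with GFP, 299 ± 171 with H-RasV12, 506 ± 73.4 with KSR1 and 29.1 ± 10.3 in the double line. It fell in the double line against KSR1 (−3.35 ± 0.32 on the log2 scale, limma adjusted p = 1.03e-05) and against H-RasV12 (−2.53 ± 0.32, limma adjusted p = 8.49e-05). Slc38a4, an amino acid transporter gene of the same parental class, had 752.5 ± 53.9, 1098 ± 87.7, 999 ± 191.5 and 273 ± 118 in that order of lines. It fell in the double line against KSR1 (−1.87 ± 0.27, limma adjusted p = 0.000285) and against H-RasV12 (−2.02 ± 0.27, limma adjusted p = 0.000139). These paternally expressed genes thus fell in the double line, the one in which the Peg3 signal was highest, and neither passed the test with KSR1 alone.

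Sfmbt2, a Polycomb group gene read by a probe set that may be shared within a gene family, rose with KSR1 from 61.9 ± 13.7 to 424 ± 171 (+2.34 ± 0.34, limma adjusted p = 0.000301). It was also higher in the double line, at 202 ± 37.1, than with H-RasV12, at 55.7 ± 24.1 (+1.55 ± 0.34, limma adjusted p = 0.00548). Impact, a regulator of translation, fell with KSR1 from 280 ± 194 to 66.8 ± 28.3 (−1.61 ± 0.44, limma adjusted p = 0.0285). That call ended without GFP replicate 1 (limma adjusted p = 0.109), GFP replicate 2 (0.0652) or KSR1 replicate 2 (0.126). Among maternally expressed genes, Ampd3, an AMP deaminase, rose from 66.2 ± 48.6 with GFP to 965 ± 283 with KSR1 (+3.57 ± 0.31, limma adjusted p = 5.02e-06). It was higher still in the double line, at 2872 ± 469 (+1.57 ± 0.31 against KSR1, limma adjusted p = 0.00315, and +4.75 ± 0.31 against H-RasV12, limma adjusted p = 3.87e-07). With KSR1 against GFP, Ampd3 was therefore opposite in direction to Meg3, Cdkn1c and the Grb10 probe sets past the filter, which are listed under the same parent. Whether these fibroblasts expressed each listed gene from the maternal copy was not measured.

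Igf2r encodes the receptor that takes up and clears IGF2, and is expressed from the maternal copy. Its signal was 1459 ± 41.5 with GFP, 1581 ± 118 with H-RasV12, 979 ± 16.0 with KSR1 and 1892 ± 320 in the double line. It rose in the double line against KSR1 (+0.92 ± 0.16, limma adjusted p = 0.00119). Its fall with KSR1 against GFP (−0.56 ± 0.16, limma adjusted p = 0.0334) did not pass once any single GFP or KSR1 array was left out (limma adjusted p between 0.0641 and 0.111). Dcn, the proteoglycan decorin, imprinted in placenta, was at 5751 ± 2586 with KSR1 and 2311 ± 953 in the double line (−1.30 ± 0.33, limma adjusted p = 0.0145). With KSR1 replicate 1 or double-line replicate 3 left out, its limma adjusted p was 0.0706 or 0.0668. It also fell against H-RasV12, where it read 4894 ± 1332 (−1.12 ± 0.33, limma adjusted p = 0.0324). That call was lost without H-RasV12 replicate 1 or 3 or double-line replicate 2 or 3 (limma adjusted p between 0.0805 and 0.142). Osbpl5, an oxysterol-binding protein gene, passed narrowly in the double line against KSR1 (−0.65 ± 0.21, limma adjusted p = 0.0497) and lost the call under 15 of the alternatives, with p up to 0.225. The remaining 8 maternal genes tested, among them Cd81, Slc22a18, Kcnq1 and Ube3a, passed in no comparison. Of Gnas, Blcap and Ddc, which have isoforms of either parent, 2 were tested, and limma called 0 in any comparison, with 0 at an unadjusted p under 0.05.

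**Figure D4:**
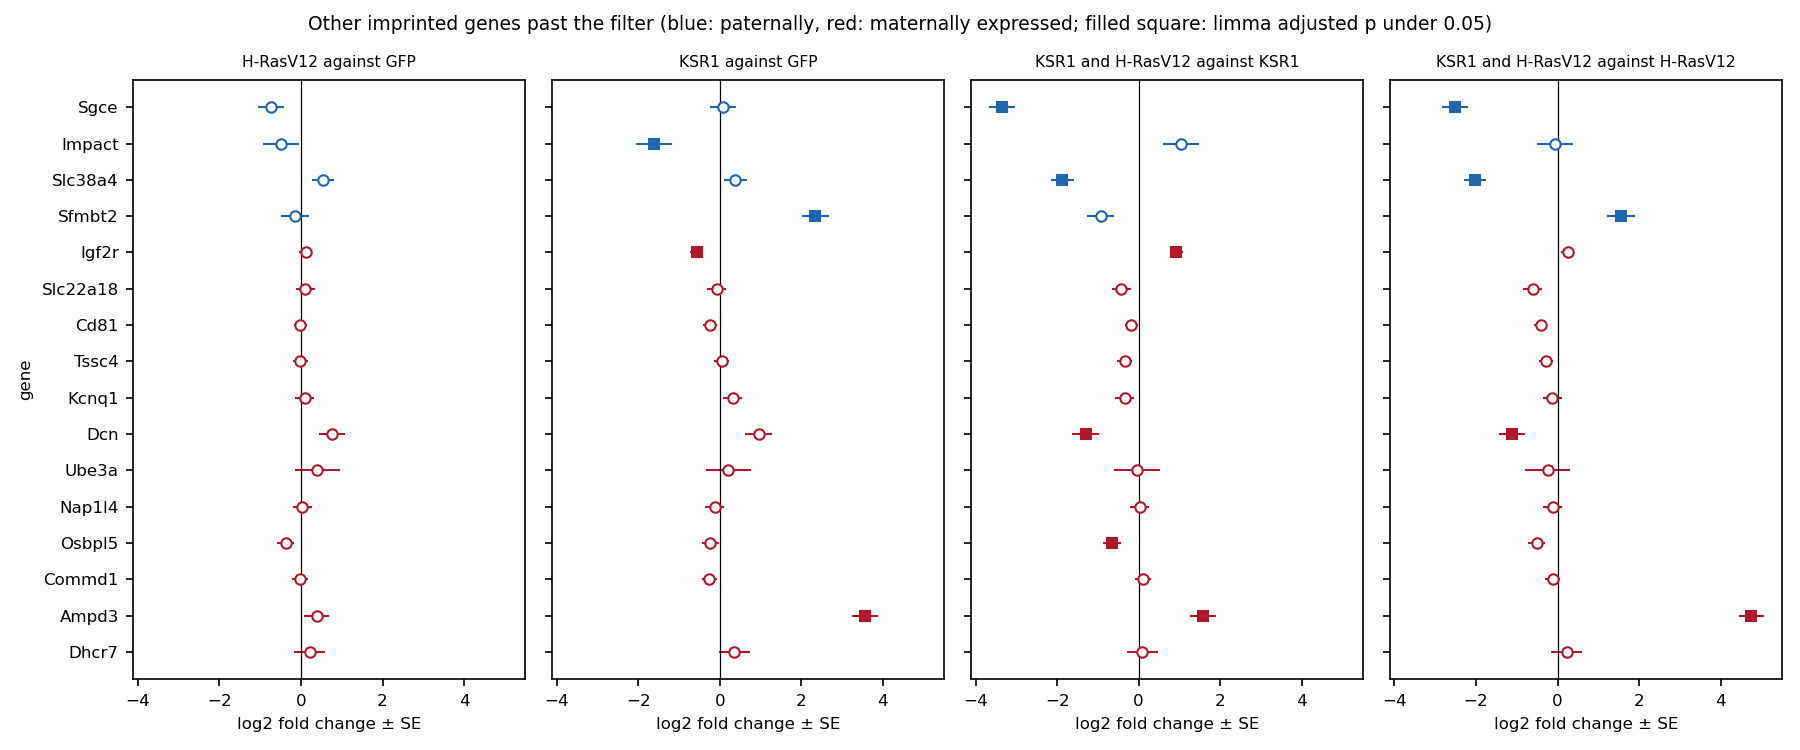
Log2 fold change ± SE of the 16 tested imprinted genes outside the main list in 4 comparisons, with paternally expressed genes in blue, maternally expressed genes in red and filled squares where the limma adjusted p was under 0.05. Sgce and Slc38a4 fell in the double line, Sfmbt2 and Ampd3 rose with KSR1, and most maternally expressed genes lie near 0.

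Genes that set or keep imprints were mostly without a passed test. Of 17 listed, including DNA methyltransferases, Tet enzymes and Polycomb subunits, 11 were on the array and 7 were tested. Against GFP, limma called 0 of the 7 for H-RasV12 and 0 for KSR1, with 1 and 0 at an unadjusted p under 0.05. Over all tested probe sets it called 0.0725% and 11.8% there. It called 15.1% of all for the double line against KSR1 and 14.8% for the double line against H-RasV12. In the double line against KSR1, 2 fell, namely Uhrf1, which guides the maintenance methyltransferase to replicated DNA (−0.95 ± 0.28, limma adjusted p = 0.0370), and Trim28, a corepressor that protects imprints (−0.61 ± 0.18, limma adjusted p = 0.0387). Both calls ended when each array's median was centred, at limma adjusted p = 0.0941 and 0.273. They also ended without KSR1 replicate 2 or 3 or double-line replicate 2 or 3, at limma adjusted p from 0.0871 to 0.138 for Uhrf1 and from 0.0567 to 0.184 for Trim28. The Trim28 call ended as well without H-RasV12 replicate 2 (limma adjusted p = 0.0524). Against H-RasV12, Trim28 also fell in the double line (−0.68 ± 0.18, limma adjusted p = 0.0208). This call ended with centred medians (limma adjusted p = 0.136) and without H-RasV12 replicate 2 or 3 or double-line replicate 2 (0.0567 to 0.0897).

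Partners of the members were read from 3 lists. These are short, and their counts stand beside the shares of all tested probe sets given above. Of the 4 tested receptors and Notch target genes that DLK1 can act on, 0 were called by limma in any comparison, with at most 1 at an unadjusted p under 0.05. Of the 4 tested IGF2 partners, Igf1r, the receptor through which IGF2 signals, fell in the double line against KSR1 (−1.35 ± 0.35, limma adjusted p = 0.0175). With KSR1 replicate 2 or double-line replicate 1 left out, its limma adjusted p was 0.082 or 0.0564. Igf2r was the other IGF2 partner called, as given above. Of 7 tested cyclins, kinases and related inhibitors, Ccnd1 fell in the double line against KSR1 (−0.75 ± 0.23, limma adjusted p = 0.0446) and Ccnd3 rose in the double line against H-RasV12 (+0.48 ± 0.15, limma adjusted p = 0.0493). The Ccnd1 call ended in 12 of 21 alternatives. These included the loss of any one of several arrays (limma adjusted p up to 0.184) and centred medians (0.207). The Ccnd3 call ended in 15 of 21. It was lost without any single array (limma adjusted p between 0.052 and 0.14) and from replicates 2 and 3 alone (0.19).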

How the data were processed

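Total RNA of 12 samples was hybridised to an Affymetrix mouse array after 1-cycle labelling, per the labels' protocols. Each deposited value is an intensity on a linear scale, a MAS5 signal per the submitters' processing notes (which MAS5 release is not stated there). Every array had a 2% trimmed mean of 500.3, and medians ran from 160.6 to 216.5, so no scaling was added. Of 12488 probe sets, 66 were controls, 10833 others had 1 gene symbol, 396 several and 1193 none in the platform annotation. Of the probe sets with 1 symbol, 10817 had a gene identifier that was found in the RefSeq table (GRCm38.p6).

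One limma fit (3.58.1, R 4.3.3; tables with Python 3.11.15) of log2(signal + 23) with 4 group means, an intensity trend and 8 residual degrees of freedom covered the 6897 probe sets with a signal over 181.4 (the median over the whole table) on 3 or more arrays. P-values were two-sided and adjusted by Benjamini-Hochberg over these, with calls at an adjusted p under 0.05. The pseudocount of 23 is the 20th percentile of all values. Probe sets below the filter were read from a fit without it. The procedure was tested on simulated data. Alternatives were pseudocounts of 1 and 100, no filter, a filter on the mean, quantile normalization, median centring, no intensity trend, the replicate block, replicates 2 and 3 alone and each array left out.

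The members and lists were chosen with earlier results of these data known. All probe sets of the members, list genes called in any comparison and the 3 closest probe sets by Pearson r are the named genes. No sequence is shown for H19 and Cdkn1c.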

Additional observations from a re-analysis of the deposited data

Results flagged for a closer look

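In 4 imprinted genes outside the main list, the response to H-RasV12 differed between cells with and without KSR1 by limma's interaction term, adjusted over 6897 probe sets. Sgce responded by −2.61 ± 0.45 more on the log2 scale with KSR1 than without (limma adjusted p = 0.0027), and Slc38a4 by −2.40 ± 0.38 (limma adjusted p = 0.00159). Dcn had −2.07 ± 0.46 (limma adjusted p = 0.0137) and Igf2r +0.81 ± 0.23 (limma adjusted p = 0.0421). The Igf2r value lost its call in 13 of 21 alternatives, with limma adjusted p up to 0.119. It ended without any single GFP, H-RasV12 or KSR1 array or double-line replicate 3, at limma adjusted p between 0.0561 and 0.119. The other 3 kept theirs in all 21. The interaction was called for 7.7% of all tested probe sets.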

How the results depend on the processing

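The called probe sets numbered 5, 813, 1040, 1022 and 531 for H-RasV12 against GFP, KSR1 against GFP, the double line against KSR1 and against H-RasV12, and the interaction. For H-RasV12 against GFP, 8 were called with no filter, 53 from replicates 2 and 3 alone and 1 to 23 with single arrays left out, and 411 had an unadjusted p under 0.05. Leaving out single arrays gave 482 to 934, 699 to 1181, 721 to 1129 and 339 to 679 for the other comparisons, with 482 without GFP replicate 3, 512 without KSR1 replicate 2, 339 without H-RasV12 replicate 2 and 340 without KSR1 replicate 2.

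Deviations of arrays of equal replicate number correlated from −0.0206 to 0.511 over 18 pairs (median 0.198, 13 above 0.1), against −0.441 to 0.242 over 36 pairs of different number (median −0.127, 6 above 0.1). All 3 equal pairs exceeded 0.1 for GFP with KSR1, for H-RasV12 with KSR1 (0.121, 0.275 and 0.363) and for KSR1 with the double line. They did not for GFP with H-RasV12 or H-RasV12 with the double line. GFP with the double line had 0.282, 0.101 and 0.0994. A pairing is thus a hint from the data, and the labels name no shared source. The replicate block called 10, 1047, 1290, 1265 and 741 and ended none of the calls of the other imprinted genes, regulators and partners.

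Among 1815 member values over 21 alternatives, 77 had another sign, 30 of them in H-RasV12 against GFP and 6 in KSR1 against GFP. A main value larger than the spread changed sign in 5, all in H-RasV12 against GFP, and 104 others moved by more than the spread. From replicates 2 and 3 alone the 5 included Dlk1 at −0.0226, Plagl1 92502_at at −0.30, the H19 and Mir675 probe set at −0.52 and Meg3 160172_at at −0.0153. With single arrays left out, the H19 and Mir675 probe set ran from −0.22 without GFP replicate 1 to +1.42 without GFP replicate 3. Of the 18 probe sets, 8 kept the sign of that comparison from replicates 2 and 3 alone, against 16 for KSR1 against GFP and 16 for the double line against H-RasV12. Centring array medians moved the median of all probe sets in the double line against KSR1 from −0.07 to +0.09. The number of arrays limits the precision. The causes of these movements were not tested.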
